A study of Danio rerio with 4 samples.

Results

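Interferon regulatory factors (IRFs) are transcription factors that bind the promoters of interferons and of genes that interferons induce, and interferon-stimulated genes are the antiviral effectors at the end of this route. The genes examined here are *irf1b*, *irf2*, *irf3*, *irf7*, *irf8*, *irf9*, *isg15* and *rsad2*, chosen by name, and each had 1 row in the table, 8 of 20984 genes in all. They were measured by bulk RNA-seq in single cryoinjured ventricles of adult AB zebrafish, 2 wild types and 2 *cd74a; cd74b* double mutants. The mutants carry small germline deletions, in every cell, in both genes for Cd74, the chaperone of MHC class II molecules. Per the methods, wild types and mutants were the offspring of separate crosses within related batches. The methods describe equal numbers of females and males for groups of even size, which gives 1 female and 1 male per genotype here. Which library is which is not stated, and no uninjured ventricle was analysed here. The design text of the series places collection at 7 days after cryoinjury, and the paper at 120 hours. The question was how loss of Cd74 alters the immune response to the injury.

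In the usual course, sensors of foreign nucleic acid activate Irf3 and Irf7, which switch on interferon genes. Secreted interferon then acts through its receptors and the Jak kinases to bring Stat2 and Irf9 together in the complex that drives genes such as *isg15* and *rsad2*. Other family members work beside this route: in mammals IRF2 opposes IRF1 on shared sites, and Irf8 directs the macrophage lineage in zebrafish as in mammals. No gene, promoter or protein sequence is shown here.

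The values are normalized counts, that is, read counts per gene divided by a library factor and rounded. They summed to between 4123819 and 4382529 per ventricle, and the wild type and mutant libraries overlapped in this total. Genes with a mean of at least 10 (16065 genes) were compared with limma on log2(normalized count + 1), a scale that understates the changes of low genes, and calls required a limma adjusted p-value below 0.05 together with a log2 fold change of 0.59 or more in either direction. With 2 ventricles per genotype, exact permutation of the genotypes cannot bring the two-sided p-value of any gene below 0.333. The limma values therefore rest on a spread shared across genes, and intervals given below are limma's 95% intervals. The targeted genes fell in the mutants, *cd74a* from 837 and 913 normalized counts to 408 and 401 (log2 fold change -1.11, limma adjusted p-value 0.010) and *cd74b* from 622 and 678 to 131 and 117 (-2.38, 0.0037). The called genes nearest to them were *csf1ra* (91.0 kb from *cd74a*, log2 fold change -1.25) and *ebf1b* (261.1 kb from *cd74b*, 3.27). All 10 cardiomyocyte markers found in the table were detected, and their median log2 fold change was 0.10. Their summed level, 15116 and 18124 in wild-type and 13420 and 14113 in mutant ventricles, was lower in the mutants mainly through *ttn.2* and *myh6*. Neither was called. *ttn.2* had 5681 and 5793 in wild-type and 3659 and 4094 in mutant ventricles. Its log2 fold change of -0.57 passed the adjusted threshold (limma adjusted p-value 0.042) but not the size limit. *myh6* varied widely within each genotype (1352 and 3908 in wild-type, 1250 and 154 in mutant ventricles).

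No member of the set passed the test. All 8 passed the filter on low values, and limma called 0 of the 8, while it called 10.1% of all tested genes (7.44% lower and 2.7% higher in mutants). At an unadjusted p-value under 0.05 there were 3 of the 8 (*irf2*, *irf8* and *isg15*), beside 29.0% of all tested genes. In *irf8*, *irf9* and *isg15* both mutants lay below both wild types, an arrangement found in 29.4% of all tested genes. In *irf2* both mutants lay above both wild types, as in 30.5% of all tested genes. The groups overlapped in *irf1b*, *irf3*, *irf7* and *rsad2*. The median log2 fold change of the 8 genes was -0.22, against 0.03 for all tested genes.

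**Figure D1:**
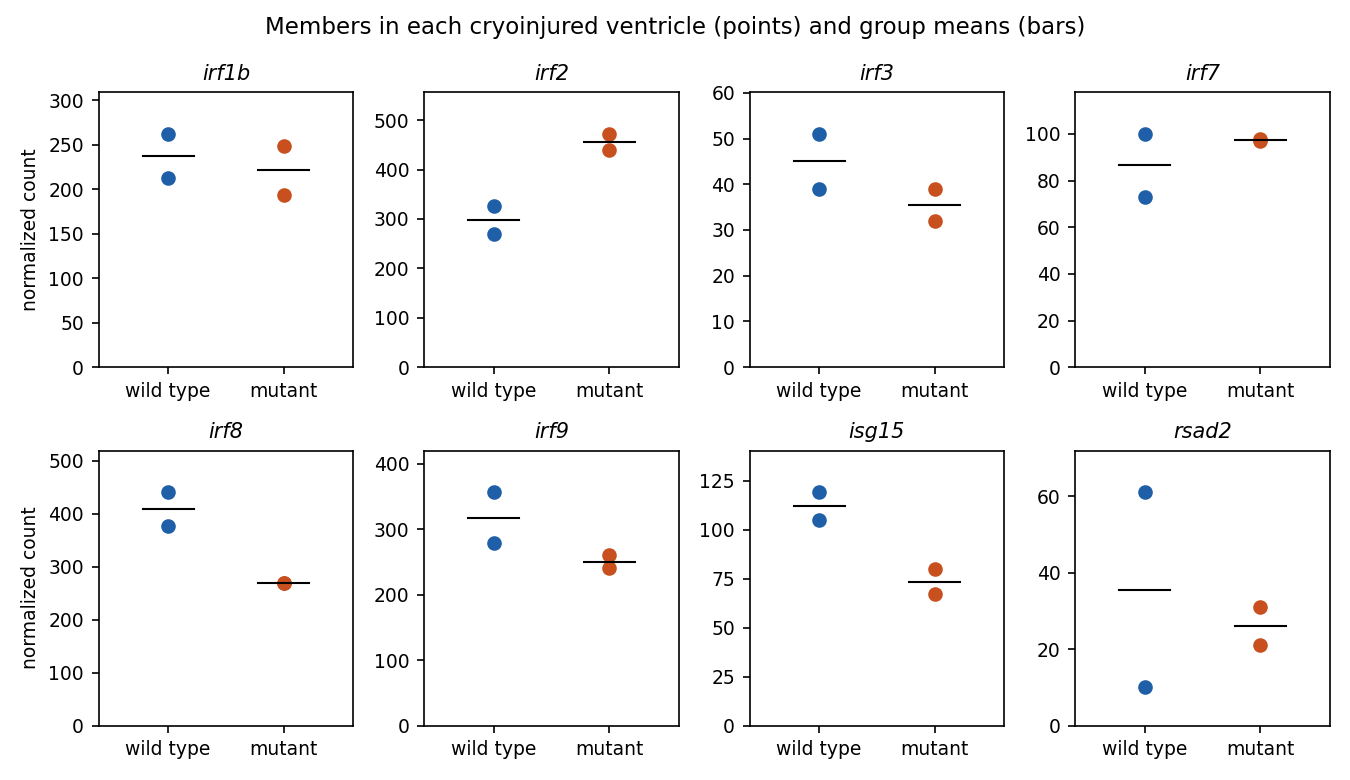
Normalized counts (y axis, from 0, scaled for each gene) of the 8 genes in the wild-type and mutant ventricles; points are single ventricles and bars are group means. Only *irf2* had both mutants above both wild types, *irf8*, *irf9* and *isg15* had both below, and *rsad2* had its lowest (10) and highest (61) values in the wild types.

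The factors that switch on interferon genes showed no difference that could be told from the spread between ventricles. *irf3* (ENSDARG00000076251, chromosome 12, 4580372 to 4598237, reverse strand, danRer11) had normalized counts of 39 and 51 in wild-type and 39 and 32 in mutant ventricles. One mutant equalled the lower wild type, and the log2 fold change was -0.33 with an interval from -1.16 to 0.51 (limma adjusted p-value 0.58). *irf7* (ENSDARG00000045661, chromosome 25, 25546789 to 25550955, reverse strand) had 73 and 100 in wild-type and 97 and 98 in mutant ventricles. The mutants were nearly equal and lay inside the range of the wild types, and the log2 fold change of 0.19 had an interval from -0.43 to 0.81 (limma adjusted p-value 0.67). These intervals reach increases of 1.42-fold for *irf3* and 1.75-fold for *irf7*, so the absence of a call does not show that the genotypes were alike.

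*irf9* and *stat2*, partners in one complex, gave different calls. *irf9* (ENSDARG00000016457, chromosome 12, 13282797 to 13306883, forward strand) encodes its DNA-binding subunit and had normalized counts of 279 and 356 in wild-type and 240 and 261 in mutant ventricles. Both mutants were below both wild types, but the log2 fold change of -0.33 (interval -0.77 to 0.11) did not pass (limma adjusted p-value 0.28). *stat2* fell from 871 and 961 to 465 and 562, for a log2 fold change of -0.84 (interval -1.21 to -0.47, limma adjusted p-value 0.022). Its call was lost without limma's mean-variance trend (limma adjusted p-value 0.10) and without the filter on low values (0.069). The intervals of *irf9* and *stat2* overlap, and the difference between their fold changes was not tested.

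*irf1b* and *irf2*, which bind like sites, had log2 fold changes of opposite sign, and neither was called. Their intervals overlap, and the difference between their fold changes was not tested. *irf1b* (ENSDARG00000043249, chromosome 21, 45626136 to 45633317, forward strand) had normalized counts of 212 and 262 in wild-type and 193 and 249 in mutant ventricles. The ventricles of the genotypes interleave, and the log2 fold change was -0.10 (interval -0.60 to 0.39). *irf2* (ENSDARG00000040465, chromosome 14, 4084120 to 4121052, reverse strand) had 270 and 326 in wild-type and 440 and 472 in mutant ventricles. The lower mutant exceeded the higher wild type, and the mean in mutants was 1.53 times that in wild types. The log2 fold change was 0.62 (standard error 0.17, interval 0.23 to 1.01), past the size limit but not past the adjusted threshold (limma adjusted p-value 0.059). It stayed between 0.48 and 0.75 when single ventricles were left out, and it was not called under any alternative.

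*irf2* lies on the chromosome of a targeted gene, 1032 kb from *cd74a*, so an effect of the mutations and one of other alleles inherited along with the edited *cd74a* cannot be told apart. Of the 11 tested genes between them, 2 were higher and 3 were lower in both mutants than in both wild types, and their median log2 fold change was 0.12. Among these 11 genes *csf1ra* alone was called. Within 1 Mb of *irf2* there were 19 tested genes, of which 6 were above and 5 below in both mutants. Among all tested genes the shares above and below were 30.5% and 29.4%. *irf1b* lies on the chromosome of *cd74b*, but 12160 kb away. The other 6 genes lie on chromosomes that carry neither target.

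The genes of Irf2-binding proteins had values above 0 like *irf2*. Irf2-binding proteins are corepressors first described as partners of mammalian IRF2, and 4 zebrafish genes were listed by name. For all 4 genes both mutants lay above both wild types, as in 30.5% of all tested genes. Limma's unadjusted p-value was under 0.05 for all 4, as for 29.0% of all tested genes, but limma called 0 of the 4. As this list was chosen with earlier results of these data known, its direction is no independent evidence. *irf2bp1* had normalized counts of 575 and 502 in wild-type and 719 and 831 in mutant ventricles, for a log2 fold change of 0.52 (interval 0.16 to 0.89, limma adjusted p-value 0.073). *irf2bp2b* had 654 and 725 against 909 and 1120, a log2 fold change of 0.55 (interval 0.18 to 0.92, limma adjusted p-value 0.069). *irf2bp2a* (0.50) and *irf2bpl* (0.56) had similar log2 fold changes with wider intervals. The list's median was 0.54, against 0.03 for all tested genes, and all 4 log2 fold changes were above 0 under every alternative.

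**Figure D2:**
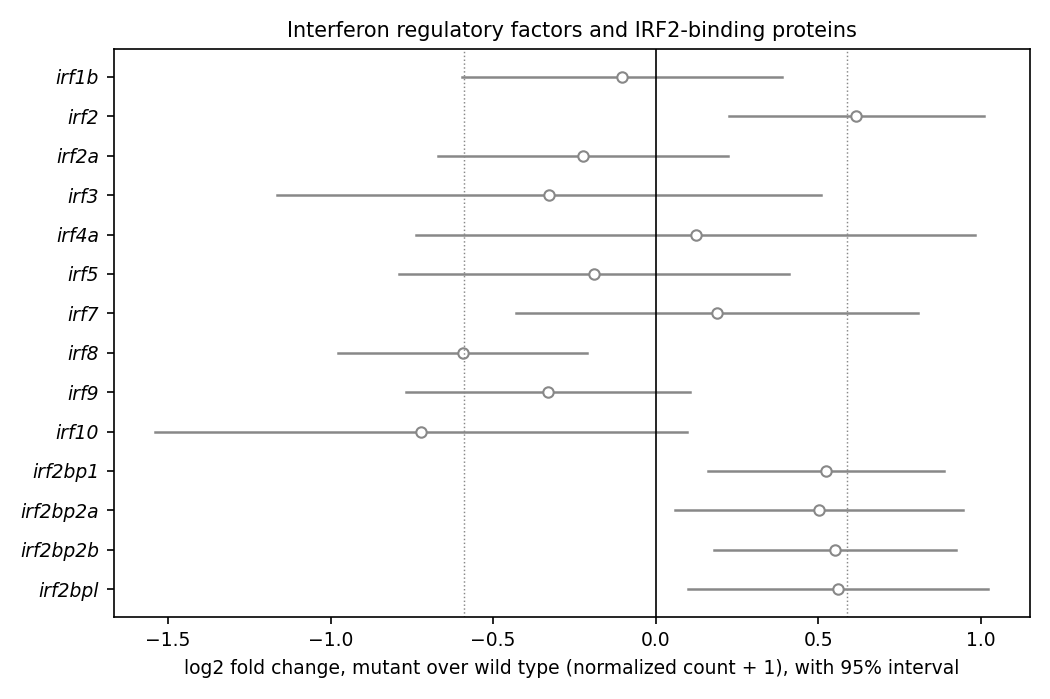
Log2 fold change of mutants over wild types (x axis, normalized count + 1) for the tested IRF genes and the genes of Irf2-binding proteins (rows), with limma's 95% intervals as lines; open points were not called and dotted lines mark 0.59 in either direction. The intervals of *irf2*, *irf8* and all 4 Irf2-binding protein genes lie on one side of 0, *irf8* below and the others above.

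*irf8* (ENSDARG00000056407, chromosome 18, 30567945 to 30573849, forward strand) had normalized counts of 440 and 377 in wild-type and 270 and 269 in mutant ventricles. The mutants were almost equal and both lay under the lower wild type, so that the mutant mean was 0.66 of the wild-type mean. The log2 fold change of -0.59 (standard error 0.16, interval -0.98 to -0.21) stood at the size limit and narrowly missed the adjusted threshold (limma adjusted p-value 0.062). The call depended on scaling. Rescaling the libraries to equal upper quartiles or equal totals, or cyclic loess (an alternative added once the data had been seen), made it pass, with adjusted p-values of 0.038, 0.044 and 0.036, in a range from 0.036 to 0.39 over all alternatives.

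Irf8 marks macrophages, and genes of this lineage were lower in the same mutants. Of 22 tested macrophage markers, limma called 7 lower and 0 higher, against 7.44% and 2.7% of all tested genes, and in 19 both mutants lay below both wild types, against 29.4%. Among the 7 was *csf1ra* (-1.25), which lies 91.0 kb from *cd74a*. For it, an effect of the mutations and one of other alleles inherited along with the edited *cd74a* cannot be told apart. Because the markers were listed with earlier results of these data known, their counts and direction are no independent evidence. The 7 calls became 1 without the mean-variance trend, 0 without the filter or with a ventricle left out, and 12 with cyclic loess. Their summed level was 10756 and 10255 in wild-type and 6822 and 7323 in mutant ventricles, and no marker was at 0 in all ventricles. The median log2 fold change of the list was -0.55. This is near the value of *irf8*, but so is the median of the erythrocyte and thrombocyte markers (-0.67), so the nearness is not particular to macrophages. The medians of the dendritic cell (-0.51) and leukocyte (-0.41) markers say less. The former list has only 4 tested genes, and the latter holds the targeted genes. The largest called decreases were those of *csf1rb* (-3.21), *grn2* (-2.50) and *lgals9l1* (-1.37). These genes encode a receptor for macrophage growth factor, a granulin and a galectin. *csf1rb* had normalized counts of 62 and 64 in wild-type and 11 and 3 in mutant ventricles. It passed the filter on low values only through the wild types, so its call lends the count of 7 no support. *grn2* had 140 and 421 in wild-type and 34 and 52 in mutant ventricles. The value of *grn2* ranged from -3.29 to -1.71 with a ventricle left out. *spi1b*, another myeloid transcription factor, had normalized counts of 557 and 516 in wild-type and 511 and 438 in mutant ventricles and was not called. The receptor and granulin genes of this list were also singled out by the study from these ventricles. In bulk RNA, fewer macrophages and less *irf8* RNA per macrophage cannot be told apart, and the part of macrophage number in the *irf8* difference was not tested.

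**Figure D3:**
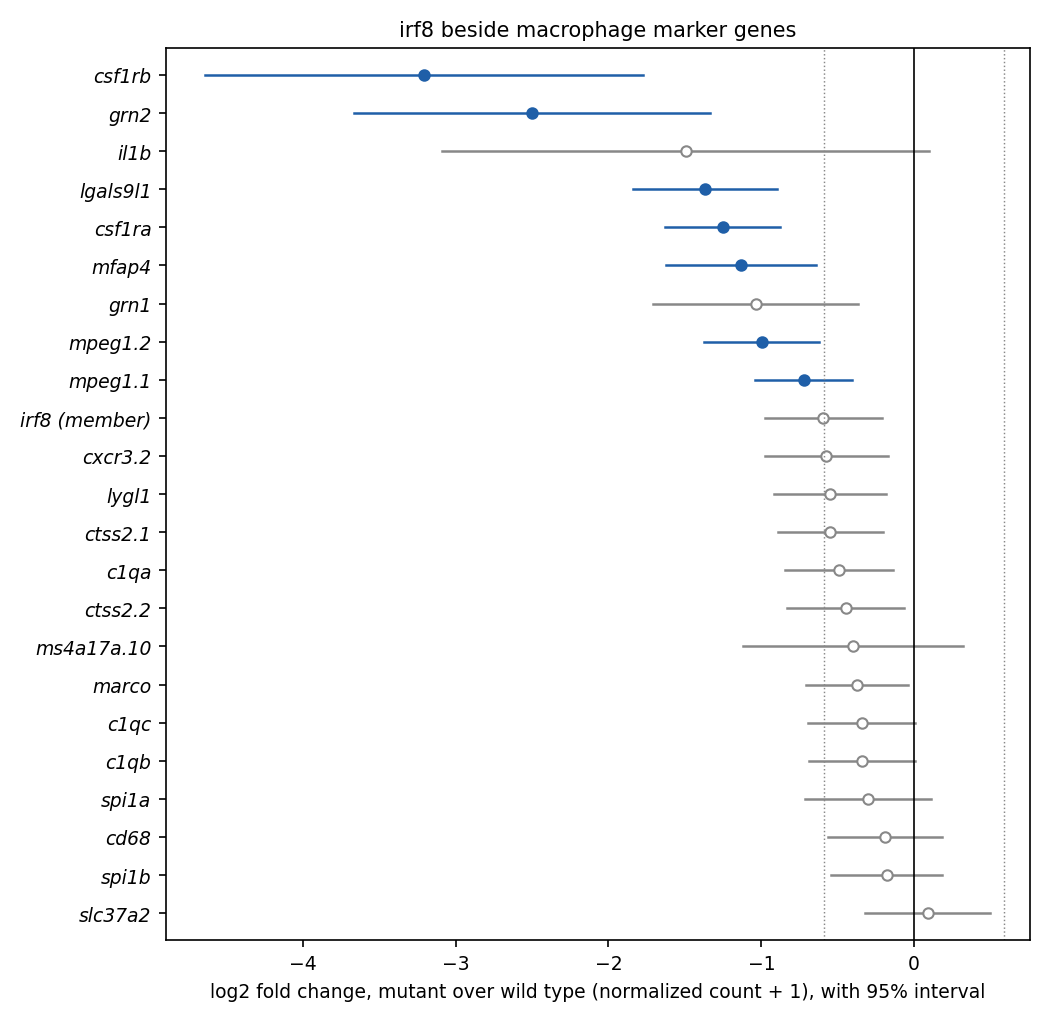
Log2 fold change of mutants over wild types (x axis, normalized count + 1) for *irf8* and 22 macrophage markers (rows, ordered by value), with limma's 95% intervals as lines; filled points were called, open points were not, and dotted lines mark 0.59 in either direction. *irf8*, at -0.59, lies near the list's median of -0.55 and near that of the erythrocyte and thrombocyte markers (-0.67).

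Other IRF genes had no call either. Of *irf2a*, *irf4a*, *irf5* and *irf10*, which passed the filter, *irf10* had the lowest value, with normalized counts of 46 and 56 in wild-type and 28 and 33 in mutant ventricles (log2 fold change -0.72, interval -1.54 to 0.10). *irf2a*, the paralog of *irf2*, had 229 and 244 in wild-type and 182 and 225 in mutant ventricles, for a log2 fold change of -0.22 with an interval from -0.67 to 0.22. The difference between the paralogs was not tested. *irf5* had a log2 fold change of -0.19 and *irf4a* one of 0.12, each with overlapping groups. *irf4b* was under the filter, with values of at most 9.

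The effector gene *isg15* encodes a ubiquitin-like protein that is attached to other proteins during an interferon response. It lies on chromosome 5 from 20112032 to 20113284 (ENSDARG00000086374, forward strand) and had normalized counts of 105 and 119 in wild-type and 80 and 67 in mutant ventricles. Both mutants lay below both wild types, at 0.66 of the wild-type mean. The log2 fold change was -0.60 (standard error 0.25, interval -1.19 to -0.02), and its unadjusted p-value of 0.045 did not survive limma's adjustment (0.16). It remained between -0.73 and -0.48 with any single ventricle left out.

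*rsad2* encodes viperin, an enzyme that makes an antiviral nucleotide, and its values differed more within the wild types than between genotypes. The gene lies on chromosome 17 from 35357451 to 35361322 (ENSDARG00000004952, reverse strand) and had normalized counts of 10 and 61 in wild-type and 21 and 31 in mutant ventricles. The wild types differed 6.1-fold and the mutants lay between them. The log2 fold change was 0.02 with an interval from -1.81 to 1.85, so that a 3-fold change in either direction would lie within it. Its sign turned under a pseudocount of 5 and under upper-quartile or total scaling. Without the first wild type it was -1.22, and without the second it was 1.27.

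Part of the lymphocyte markers were also higher in the second wild type. Among all tested genes, 4.86% had at least 2 times the first wild type's value in the second, whereas this held for 6 of 10 tested T cell markers and 3 of 5 tested B cell markers. *lck*, a kinase of T cells, had normalized counts of 5 and 28 in wild-type and 16 and 15 in mutant ventricles, and *cd79a*, a chain of the B cell receptor, had 3 and 50 in wild-type and 4 and 5 in mutant ventricles. Other markers were level or lower in the second wild type, among them *gata3* (173 and 111), *tox* (99 and 97) and *blnk* (157 and 109). *cd4-1*, the CD4 coreceptor gene and the one T cell marker called, was level in the wild types (171 and 162) and fell to 21 and 19 in the mutants (log2 fold change -3.00, limma adjusted p-value 0.0065). The study also singled it out from these ventricles. The summed T cell markers were 525 and 619 in wild-type and 451 and 476 in mutant ventricles, lower in the mutants through *cd4-1*. The median log2 fold change of the 10 tested T cell markers was 0.15, and 3 of the 10 were below 0. The summed B cell markers were 328 and 466 in wild-type and 194 and 171 in mutant ventricles. Most of this sum came from *cd22* (144 and 185 against 115 and 104) and *blnk* (157 and 109 against 63 and 45). *cd79b*, the other chain of the B cell receptor, had 0 and 16 in wild-type and 3 and 3 in mutant ventricles. The sum is therefore no measure of B cell number. Of the defining B cell genes, *pax5* was at 0 in 3 ventricles and at 4 in the second wild type. The part of lymphocyte content in the *rsad2* values was not tested.

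Markers of other cell types were also called in part. Against 7.44% of all tested genes, limma called lower 4 of 10 tested neutrophil markers, 2 of 9 leukocyte markers (the targeted genes themselves), 1 of 10 T cell, 1 of 5 B cell (*blnk*) and 0 of 4 dendritic cell markers. It called 2 of 12 endocardial and endothelial markers lower and 1 higher, 1 of 11 epicardial and fibroblast markers lower, and 0 of 9 erythrocyte and thrombocyte and 0 of 10 cardiomyocyte markers in either direction. Without the mean-variance trend the neutrophil, leukocyte and T cell counts were 1 each and the B cell count 0. The endocardial and endothelial and the epicardial and fibroblast counts were also 0 in that setting. There *cd74a* lost its call (limma adjusted p-value 0.054). Although no erythrocyte or thrombocyte marker was called, 6 of 9 had both mutants below both wild types, against 29.4% of all tested genes. The same 6 had a limma unadjusted p-value under 0.05, against 29.0% of all tested genes. The summed level of the 9 markers was 5268 and 7526 in wild-type and 4503 and 4135 in mutant ventricles. The summed neutrophil markers were 2153 and 2063 in wild-type and 1515 and 1544 in mutant ventricles. Their part in the values of the IRF genes was not tested.

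The wild types were closer to each other in *cmpk2* and *rnf144aa*, the neighbors of *rsad2*, than in *rsad2* itself. *cmpk2* is a nucleotide kinase gene that starts 1.53 kb past *rsad2* on the opposite strand and is induced with *rsad2* in mammals. It had normalized counts of 20 and 25 in wild-type and 17 and 15 in mutant ventricles, below both wild types in both mutants without a call. *rnf144aa*, 4.76 kb away on the other side, fell from 94 and 110 to 14 and 1, for a log2 fold change of -4.23 (limma adjusted p-value 0.028). Its mutants differed 14-fold, and its value ranged from -5.68 to -2.78 with a ventricle left out. *rnf144aa* was singled out after its values were seen.

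Among other interferon-stimulated genes, limma made calls in 1 direction. Of 66 further genes listed by name, 54 were found in the table and 42 were tested. Limma called 8 of the 42 lower and 0 higher, against 7.44% and 2.7% of all tested genes, and their median log2 fold change was -0.49. In 25 of the 42 both mutants lay below both wild types (29.4% of all tested genes), in 2 they lay above (30.5%), and 15 overlapped. The list was put together with earlier results of these data known, so its direction is no independent evidence.

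The called genes were of several kinds. *eif2ak2* (protein kinase R, which halts translation on sensing double-stranded RNA) fell from 62 and 75 normalized counts to 8 and 5, for a log2 fold change of -3.24 (interval -4.33 to -2.14, limma adjusted p-value 0.012). *mxc*, a dynamin-like antiviral GTPase gene, fell from 86 and 116 to 15 and 30 (-2.18), while its relative *mxa* had 135 and 110 against 50 and 74 and missed the threshold (-0.99, limma adjusted p-value 0.073). *ifi44a5* had 13 and 29 in the wild types and was listed at 0 in both mutants, and its call was lost with the replicate block (limma adjusted p-value 0.075). Its mean of 10.5 passed the filter of 10 only through the wild types, and the same holds for *eif2ak2*. Such a gene could hardly have been tested with a value near 0 in both genotypes, so its call lends the count no support. The helicase gene *helz2a* fell from 193 and 214 to 72 and 70 (-1.50). Its paralog *helz2b* fell from 271 and 545 to 139 and 123 (-1.55). *cd9b*, a tetraspanin gene, *stat2* and *gbp1*, a guanylate-binding GTPase gene named outside the rule, had called log2 fold changes of -1.20, -0.84 and -0.71. *gbp1* lost its call with the replicate block (limma adjusted p-value 0.059). Near-identical members of the *mx*, *ifit*, *ifi44* and *gbp* families may lose reads unequally, since reads aligning to several regions were not counted.

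**Figure D4:**
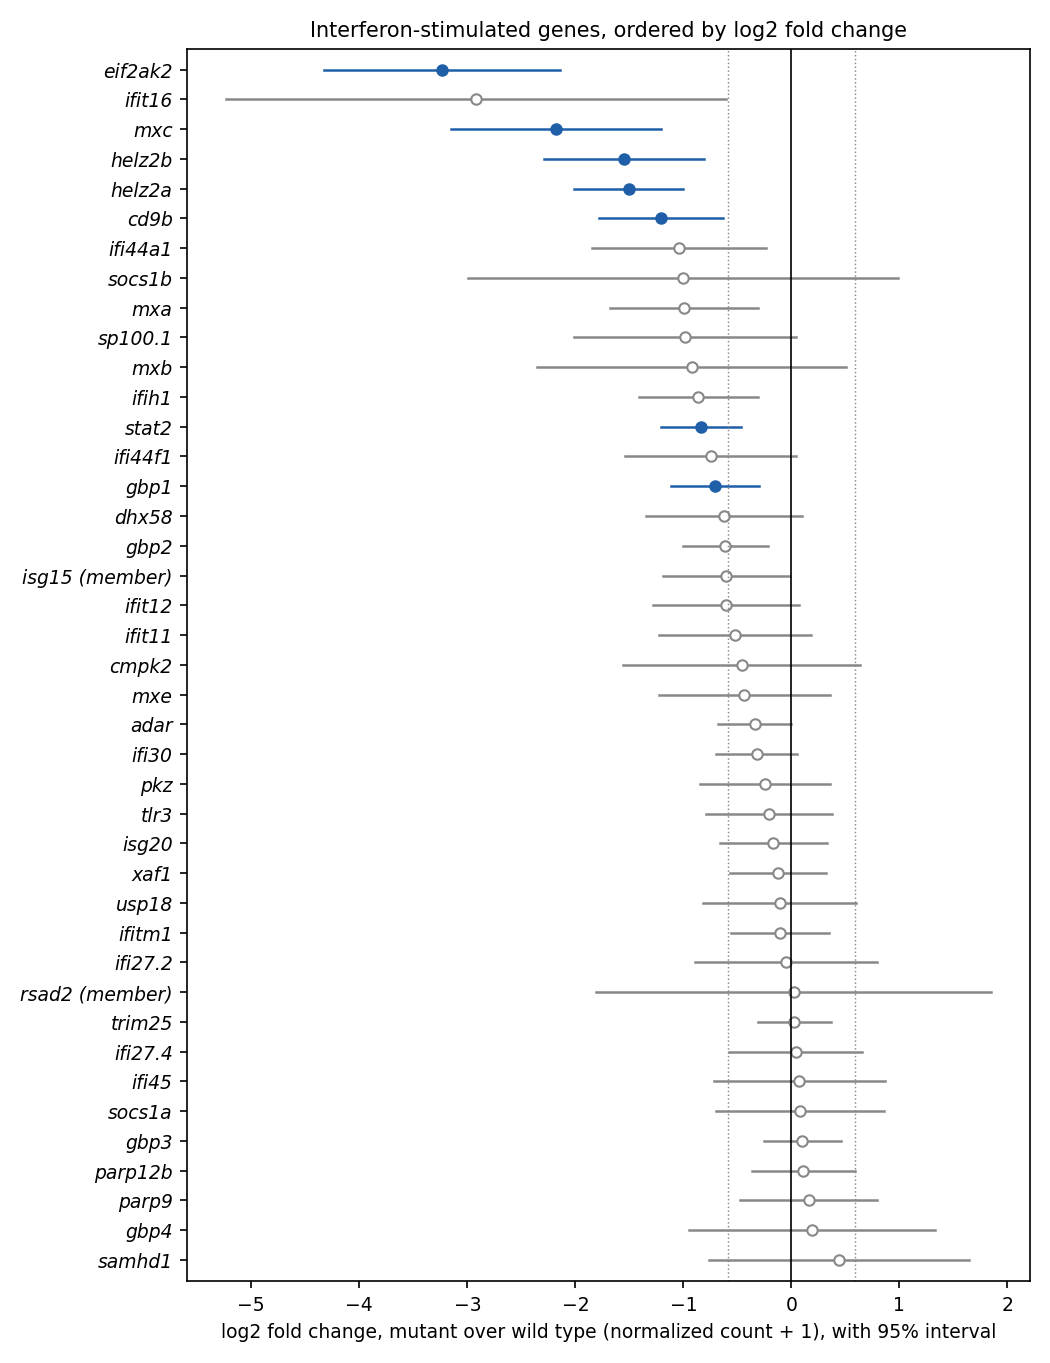
Log2 fold change of mutants over wild types (x axis, normalized count + 1) for tested interferon-stimulated genes (rows, ordered by value; *ifi44a5*, at 0 in both mutants, and genes not reported here are left out), with limma's 95% intervals as lines; filled points were called lower, open points were not called, and dotted lines mark 0.59 in either direction. *isg15* lies at -0.60 and *rsad2* at 0.02, the latter with an interval from -1.81 to 1.85.

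The count of 8 called genes rests on the shared spread. It was 6 with a replicate block, 3 without limma's mean-variance trend, and 0 without the filter or with any single ventricle left out, where limma called no gene of the whole table although between 2174 and 3373 had an unadjusted p-value under 0.05. Those called without the trend were *ifi44a5*, *eif2ak2* and *helz2a*. Of these, *ifi44a5* and *eif2ak2* passed the filter only through the wild types, as given above. With the first or second wild type left out, 34 of 41 and 30 of 39 listed genes fitted had log2 fold changes below 0. The medians were -0.40 and -0.47. With the first or second mutant left out these were 32 of 42 (-0.41) and 37 of 42 (-0.54). Among all genes fitted, 7702 of 15968, 7632 of 15883, 7802 of 16110 and 7979 of 16231 were below 0, in the same order. Their medians were 0.022, 0.029, 0.0225 and 0.0073. As the list was chosen with earlier results known, these directions are no independent evidence.

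In the lists upstream of the interferon-stimulated genes, which share some genes with that list, a few genes were called lower. Of 12 tested receptor and Jak-Stat genes, 2 were called lower and 0 higher (7.44% and 2.7% of all tested genes), with a median of -0.23. The count was 0 without the mean-variance trend. *ifngr1l*, a receptor subunit for interferon gamma, fell from 273 and 331 normalized counts to 68 and 27, for a log2 fold change of -2.78 (interval -3.74 to -1.82, limma adjusted p-value 0.013). The other was *stat2*, which is already counted among the 8 called interferon-stimulated genes. The type I receptor genes *crfb1* (90 and 113 against 133 and 102) and *crfb2* (71 and 88 against 81 and 73) were not called. *jak1* had 1602 and 1564 in wild-type and 1145 and 1043 in mutant ventricles, for a log2 fold change of -0.53 that passed the adjusted threshold (limma adjusted p-value 0.048) but not the size limit. It was called under upper-quartile scaling (-0.59, adjusted p-value 0.026) and cyclic loess (-0.65, adjusted p-value 0.023). Of the interferon genes, *ifnphi1* had 14 and 14 against 20 and 14 and was not called, and *ifnphi3* was under the filter.

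Of 22 tested sensors, adaptors and kinases, 3 were called lower and 0 higher (7.44% and 2.7% of all tested genes), with a median of -0.33. The count was 0 without the mean-variance trend, 2 with the replicate block and 5 under upper-quartile scaling. They were *tlr21* (205 and 127 against 67 and 46), *tlr22* (155 and 102 against 54 and 55) and *unc93b1* (283 and 203 against 114 and 73), which in mammals escorts nucleic acid-sensing Toll-like receptors to endosomes. *tlr22* lost its call with the replicate block (limma adjusted p-value 0.070) and with cyclic loess (0.056). The kinases that activate Irf3 and Irf7 were not called. *tbk1* had 571 and 472 in wild-type and 600 and 633 in mutant ventricles, and *ikbke* had 360 and 320 against 222 and 224 (log2 fold change -0.60, limma adjusted p-value 0.062). Like *irf8*, *ikbke* passed under upper-quartile scaling, equal totals and cyclic loess, with limma adjusted p-values of 0.040, 0.045 and 0.039. The adaptor *mavs* had 441 and 407 against 490 and 628, with both mutants above both wild types and no call. Macrophage markers were lower in the same mutants, as given above, and their part in these 3 values was not tested.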

How the data were processed

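Per the methods, the labels and the submitters' processing notes, the authors trimmed reads with Trimmomatic 0.39, aligned them to danRer11 (Ensembl release 104 annotation) with STAR 2.7.9a and counted them per gene with featureCounts 2.0.2, leaving out reads of several genes or regions. What the authors deposited is a score per gene and library: a count scaled by its DESeq2 1.30.0 size factor, then rounded. Removal of duplicate reads is not given in the sources used here. As the deposited score is no raw count, no count model was run. From it, limma 3.58.1 (R 4.3.3, trended empirical Bayes, 5.33 prior degrees of freedom) was fitted to log2(score + 1) of the 16065 genes averaging 10 or more, and p-values were adjusted over all of them by Benjamini-Hochberg. The thresholds are those of the paper's methods, which applied them to DESeq2 results. The paper's volcano plot used a higher fold limit, equal to the log2 limit of 1 among the alternatives below. The fit was tested on simulated data. The members and lists were chosen with earlier results of these data known. Symbols were matched to the table, and otherwise through Ensembl identifiers in a table of gene names.

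Genes were named by a rule: the members, the targeted genes, up to 6 called genes per pathway list and up to 3 per marker list by size of change. Further members of these lists that were not called are given with their values. Rules for genes of similar profile and nearest called neighbor applied to called members, of which there were 0. Replicate numbers come from the sample titles, and each ventricle is a different fish. Same-numbered ventricles did not deviate together (correlation -0.066 over genes), and no block was used. The scaling by trimmed mean of log ratios was coded directly. Some genes of the lists are counted but not reported by name here.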

Additional observations from a re-analysis of the deposited data

How the results depend on the processing

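No member was called under any alternative other than those that made *irf8* pass: upper quartile, equal totals and cyclic loess, with 1 member called in each. Over all tested genes, limma called 1196 lower and 434 higher. No gene was called without the filter (0 lower and 0 higher, with 5015 at an unadjusted p-value under 0.05) or with any single ventricle left out (0 to 0 lower and 0 to 0 higher), where the lone ventricle of a genotype was assumed to vary like the other genotype. Without the mean-variance trend 461 were lower and 82 higher, with a replicate block 740 and 215, and with a log2 limit of 1 there were 238 higher. The replicate block changed no member's call and, of the other genes named, ended those of *ifi44a5*, *tlr22* and *gbp1*. *rsad2* turned to -0.040 with a pseudocount of 5, -0.036 with upper quartiles and -0.0071 with equal totals, and ranged from -1.22 to 1.27 with single ventricles left out. In the same way *irf1b* ranged from -0.29 to 0.079, *irf7* from -0.036 to 0.41, *irf4a* from -0.0048 to 0.25 and *irf5* from -0.48 to 0.10. Under a minimum mean of 50, *irf3* and *rsad2* were not fitted. Count models were not run, since the values are normalized and rounded.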
